A study of Homo sapiens with 12 samples.

Results

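The change of the Nnm effect between 24 h and 48 h was followed gene by gene in HK-2, an established cell line from the human renal proximal tubule. It was computed within each replicate number as Nnm minus control at 48 h, minus Nnm minus control at 24 h, and then averaged over the 3 replicates. All 12 of the 12 arrays entered: 3 control and 3 Nnm samples at each of the 2 times, where Nnm cells received a high dose of the compound the labels call Nnm and control cells its vehicle. Per the design text, the experiment belongs to a larger screen of compounds for signatures of toxicity. The dose, the vehicle and the compound's full name are not given in the sources used here. Every group, controls included, had EGF, hydrocortisone, selenite, transferrin and insulin in its medium and was treated near confluence. The labels call the replicates biological without saying what separated them, so the p-values measure the spread between these samples. After a filter that kept probe sets above log2 4 on at least 3 arrays, 22829 probe sets and 10966 genes were compared.

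Proximal tubule cells reabsorb filtered solutes and take up many toxic compounds. Several programs of gene expression respond to such exposure on different time scales. ATF4 and its partners raise amino acid transport and the supply of cysteine when protein synthesis or the endoplasmic reticulum is stressed, and NRF2 raises the enzymes that make and recycle glutathione and thioredoxin. E2F factors drive the genes of DNA replication before S phase, while ERK, NF-kB and interferon signalling lead to feedback phosphatases, chemokines and antiviral genes. In untreated cultures that fill the dish, proliferation and nutrient genes also move with time, so a change of the Nnm effect can come from the Nnm cells, from the control cells or from both.

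Array medians lay between 2.91 and 2.98 and each array had 22081 to 22286 probe sets above log2 4. Of 17 proximal tubule markers on the arrays, 5 passed the filter (DPP4, PAX8, CDH6, CDH2 and CA2), and the defining transport genes LRP2, CUBN, AQP1, SLC34A1 and SLC22A6 lay under it. Of the markers of other cells, 4 of 8 for fibroblasts, 3 of 5 for podocytes, 1 of 8 for distal nephron, 1 of 6 for endothelium and 0 of 4 for leukocytes passed. DCN and LUM averaged 11.9 and 10.2, and PTPRO 13.1. Within these lists CDH6, a cadherin of the nephron's progenitors, had the largest time change, 1.81 ± 1.02 (SD, n = 3), and the podocyte and fibroblast members ran from -0.34 to 0.52. Whether RNA of other cell types had a part in the results was not tested.

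Replicate 2 stood apart among the Nnm samples at both times. The SD of the Nnm effect over probe sets was 0.44 at 24 h and 0.43 at 48 h in replicate 2, against 0.85 to 0.96 in replicates 1 and 3. The time change itself correlated at 0.70 across probe sets between replicates 1 and 3, at 0.11 between 1 and 2 and at 0.16 between 2 and 3. Values without replicate 2 are given for the main results below that shift with it.

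Adjusted over all probe sets, limma on the 3 within-replicate values called 0 of 22829 (0%), with a smallest adjusted p of 0.282. At an unadjusted p under 0.05 there were 3858 probe sets (16.9%). The fit of 4 groups without the replicate number also called 0, with 1418 at unadjusted p under 0.05, and the additive replicate block called 0, with 2321. Over probe sets, the 95% interval of a time change had a median half-width of 0.48 on the log2 scale. By sign alone, the time change was positive in 3 of 3 replicates for 2546 genes (23.2%) and negative in 3 of 3 for 2169 (19.8%), and its median over all genes was 0.03. These shares are the background for every count of list members by the sign of the time change. For counts of class members or of limma calls, the background is the matching share over all genes given in the paragraphs that follow.

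Genes were sorted into classes by the size and sign of the effect at each time, as a description with no test. Transient genes had a mean effect of at least 1 (log2) at 24 h, of one sign in 3 of 3 replicates, that moved towards 0 or past it in 3 of 3 and reached at most 0.5 times that size. The ratio is signed, so an effect that turned its sign counts as below 0.5. Late genes had a mean effect of at least 1 at 48 h, of one sign in 3 of 3 replicates. Their time change had that sign in 3 of 3, and their mean effect at 24 h was at most 0.5 times as large, signed likewise. Sustained genes had mean effects of at least 1 at both times, with the same sign in 3 of 3 replicates at each. Their ratio lay between 0.5 and 2. Of 10966 genes, 127 (1.16%) were transient and higher with Nnm and 151 (1.38%) transient and lower. The late class held 141 higher genes (1.29%) and 51 lower ones (0.465%), and the sustained class 325 higher (2.96%) and 218 lower (1.99%). CCL20 alone (0.00912%) was lower at 24 h and higher at 48 h by enough for both the transient and the late definition, and 0 genes (0%) did so in the opposite order. Without replicate 2 the same classes held 343, 523, 389, 146, 569 and 494 genes, of which 100, 128, 125, 46, 310 and 213 were also in the classes from all replicates. Among late genes 73.4% were higher with Nnm as deposited, 63.5% after quantile normalization and 60.6% with arrays centred on their medians.

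**Figure D1:**
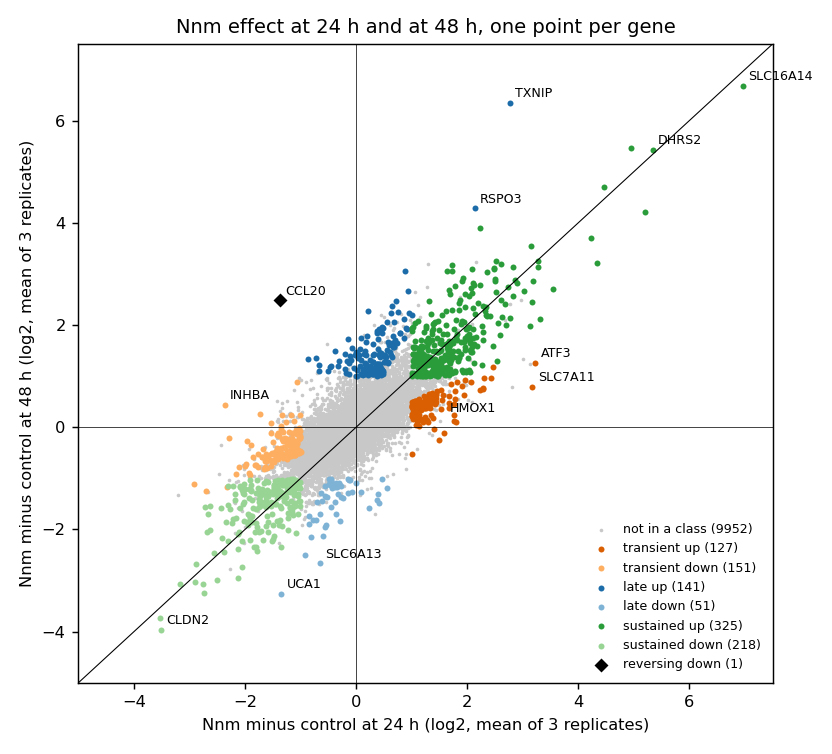
Mean Nnm minus control difference at 24 h (horizontal, log2) against 48 h (vertical, log2) for 10966 genes, with colours for the response classes and a diagonal where both times are equal. TXNIP and RSPO3 lie above the diagonal, SLC7A11, ATF3 and HMOX1 below it at high 24 h values, and SLC16A14 and DHRS2 near it.

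Large early differences were followed to the second day, and large late ones were traced back. Of 647 genes at least 2-fold higher with Nnm at 24 h in 3 of 3 replicates, 50.2% were sustained and 19.6% transient, and 29.7% met no definition. Of 592 genes at least 2-fold lower, 36.8% were sustained and 25.5% transient, and 37.3% met no definition. Looking back from 48 h, 325 of 672 higher genes were sustained (48.4%) and 141 late, and 218 of 394 lower genes were sustained (55.3%) and 51 late (12.9%).

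Because the time change equals the 48 h minus 24 h change of the Nnm cells less that of the control cells, it was split into these arms. In transient higher genes the median control change was 0.42 and the median Nnm change -0.42, and in transient lower genes -0.43 and 0.48. Late higher genes had medians of -0.32 in control and 0.79 in Nnm cells, and late lower genes 0.51 and -0.41. Control cells had the larger arm in 63 of 127 (49.6%), 70 of 151 (46.4%), 41 of 141 (29.1%) and 30 of 51 (58.8%) genes of these classes. Over all tested genes they did so in 4638 of 10966 (42.3%), so the shares of the transient classes lay near the background. The classes were chosen by the sign of the time change, which favours arms of opposite sign. In replicate 2 the Nnm arm was close to 0 in every class, with medians of -0.02, 0.01, 0.12 and 0.08 in the same order, while its control arm lay at 0.41, -0.36, -0.34 and 0.43. Across all genes, limma on the within-replicate differences called 2029 probe sets (8.89%) in control cells, with 492 genes higher (4.49%) and 570 lower (5.2%) at 48 h. In Nnm cells it called 0 probe sets (0%), with 3757 (16.5%) at an unadjusted p under 0.05. For the effect at each time, the 4-group limma fit called 911 genes higher (8.31%) and 900 lower (8.21%) at 24 h, and 718 higher (6.55%) and 468 lower (4.27%) at 48 h. With the replicate number as a block these counts were 1706, 1745, 1448 and 1061, while the within-replicate fit of a single time, with 2 residual degrees of freedom, called 0 probe sets (0%) at either.

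**Figure D2:**
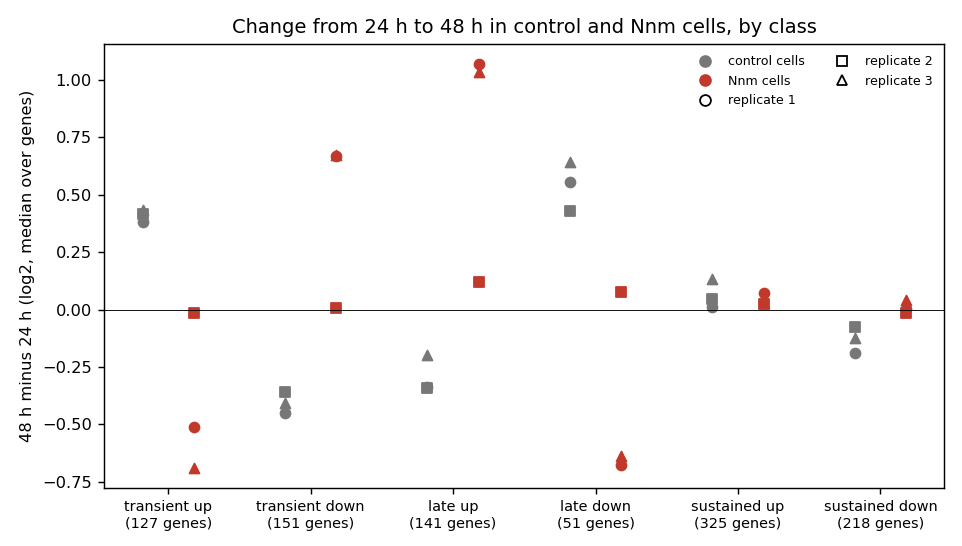
Median 48 h minus 24 h change (log2) over the genes of each class in control cells (grey) and Nnm cells (red), with one symbol per replicate. In the transient and late classes the 3 control medians lie together, and the Nnm median of replicate 2 (square) lies near 0, apart from replicates 1 and 3.

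Of the 127 transient higher genes, 3 were in the ATF4 and amino acid list and 3 in the NRF2 list. SLC7A11, a cystine importer whose substrate is used to make glutathione, had log2 levels at 24 h of 6.79, 7.20 and 7.06 in control replicates 1, 2 and 3 and of 11.17, 7.90 and 11.51 with Nnm. At 48 h the levels were 8.81, 7.90 and 7.55 in control and 9.41, 8.04 and 9.18 with Nnm. All 3 Nnm samples lay above all controls at 24 h, and the groups overlapped at 48 h, when the Nnm samples 1 and 3 were lower and the controls higher than a day before. Its effect went from 3.17 (4-group limma, adjusted p = 0.031) to 0.79 (adjusted p = 0.54), a time change of -2.38 ± 1.65 (SD, n = 3), with -3.77, -0.56 and -2.81 in the replicates (limma adjusted p = 0.282) and a mean of -3.29 without replicate 2. For every gene described below, the limma adjusted p of the time change was 0.282 or higher.

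ATF3, a transcription factor induced by many stresses, measured 4.84, 3.71 and 5.34 in control and 9.68, 4.47 and 9.43 with Nnm at 24 h. At 48 h it measured 7.08, 5.67 and 5.30 in control and 8.21, 5.49 and 8.13 with Nnm. The Nnm samples of replicates 1 and 3 were above all controls at both times, and that of replicate 2 lay among the controls. The effect was 3.23 at 24 h (4-group limma adjusted p = 0.10, and 0.029 with the replicate block) and 1.27 at 48 h, and the time change was -1.96 ± 1.51 (SD, n = 3) and -2.47 without replicate 2.

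Among 25 tested genes of the ATF4 and amino acid response, the median time change was -0.32, with 11 negative and 4 positive in 3 of 3 replicates. The median effect went from 0.45 to 0.37, and the control cells' median change was 0.25. By replicate the median effect was 1.03, 0.00 and 0.81 at 24 h and 0.37, -0.24 and 0.86 at 48 h. At each time the 4-group limma fit called 0 of the 25 higher and 1 lower. CTH, which makes cysteine from cystathionine, had a time change of -1.31 ± 0.47 (SD, n = 3) and was transient, with a 24 h effect of 1.94 that was called with the replicate block (limma adjusted p = 0.031) and not without (0.074). CHAC1, a glutathione-degrading enzyme, had -1.51 ± 1.36, and DDIT3, the stress factor also called CHOP, had -1.58 ± 1.48, or -2.28 without replicate 2. The 24 h effects of CHAC1 and DDIT3 were not called without the block (limma adjusted p = 0.23 and 0.14) or with it (0.081 and 0.054). In replicate 2 these effects were 0.03 and -0.26. The 24 h control mean of CHAC1, 3.97, lay under log2 4. Control levels of CTH, CHAC1 and DDIT3 lay 1.04, 1.29 and 1.53 higher at 48 h than at 24 h (within-replicate limma adjusted p = 0.063, 0.18 and 0.12). Control replicate 1 stood highest at 48 h, at 6.98 against 4.68 and 4.14 for CHAC1 and 10.99 against 9.04 and 8.97 for DDIT3. The Nnm means of each gene lay within 0.28 of each other at the 2 times. By replicate, the Nnm change was 0.02, -0.37 and -0.48 for CTH and -0.18, -0.29 and -0.18 for CHAC1. For DDIT3 it was -0.12, 0.57 and -0.60. CEBPG, a partner of ATF4, was in the sustained class with effects of 1.20 and 1.24, called only with the replicate block (limma adjusted p = 0.031 and 0.033, against 0.12 and 0.13 without). INHBE, an inhibin subunit, was transient too. It rose by 2.19 in control cells (within-replicate limma adjusted p = 0.043), and its Nnm mean lay 0.67 higher at 48 h.

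The promoters of ATF3 and CHAC1 are shown because, of 9 transient higher genes searched that had an entry, these 2 held the C/EBP-ATF element to which ATF4 dimers bind. Genes named only as added largest members of a class, or only for levels like another gene, were not searched. The element was searched as TGATGNAA on both strands in the 300 bases around the start listed in the RefSeq table of GRCh38.p14, and 3.62% of all 35116 promoters in that table held it. Capitals mark the match. ATF3 lies at chr1:212565157-212565456 on the plus strand and CHAC1 at chr15:40953221-40953520 on the plus strand, where the match reads on the opposite strand.
ATF3: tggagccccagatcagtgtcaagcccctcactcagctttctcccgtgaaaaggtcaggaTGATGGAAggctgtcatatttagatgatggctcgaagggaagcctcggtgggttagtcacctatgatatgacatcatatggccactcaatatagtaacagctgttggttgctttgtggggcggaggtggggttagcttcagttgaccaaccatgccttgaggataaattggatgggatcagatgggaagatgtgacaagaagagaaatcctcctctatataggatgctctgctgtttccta
CHAC1: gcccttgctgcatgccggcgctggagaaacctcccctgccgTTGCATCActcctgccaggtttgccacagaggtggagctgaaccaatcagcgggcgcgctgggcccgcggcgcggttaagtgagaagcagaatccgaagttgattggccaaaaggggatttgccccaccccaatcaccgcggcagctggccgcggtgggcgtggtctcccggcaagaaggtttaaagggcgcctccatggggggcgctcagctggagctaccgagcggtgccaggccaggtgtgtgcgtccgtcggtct
The window of CTH held no match to these letters. Other motifs were searched in the same 9 windows. The antioxidant response element core matched 2, CLCN4 and SEL1L, against 13.3% of all promoters, and did not match GCLC or OSGIN1. The E-box matched 2 (7.26% of all promoters), the CRE 1 (1.85%) and the AP-1 site 1 (4.95%). Of 13 late higher windows, 3 held the E-box, 1 the antioxidant response element core and 1 the CRE.

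Of 18 tested NRF2 targets 3 were transient and higher, 2 were sustained and higher and the others met no class definition. In all, 5 had a negative and 2 a positive time change in 3 of 3 replicates, with a median of -0.16 and -0.22 without replicate 2. GCLC, the catalytic subunit of glutathione synthesis, went from an effect of 1.44 to 0.65, OSGIN1 from 2.43 to 0.97, and GSR, which reduces oxidized glutathione, from 0.92 to 0.05. GSR had a time change of -0.87 ± 0.38 (SD, n = 3), negative in 3 of 3 replicates, and its 24 h effect was called only with the replicate block (adjusted p = 0.016, against 0.052 without). The same held for GCLC (0.029 against 0.053) and OSGIN1 (0.028 against 0.066) in limma. TXNRD1, thioredoxin reductase, measured 11.74, 11.90 and 11.71 in control and 14.09, 13.01 and 14.15 with Nnm at 24 h. At 48 h it measured 11.76, 11.88 and 11.68 against 13.71, 12.64 and 13.71. Nnm samples lay above all controls at both times, and the time change was -0.40, -0.35 and -0.42, the narrowest spread among the NRF2 targets named here. TXNRD1 rose by 1.97 at 24 h and by 1.58 at 48 h (4-group limma adjusted p = 0.012 and 0.021). NQO1, a quinone reductase, rose by 1.19 and 1.34 (4-group limma adjusted p = 0.017 and 0.013).

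HMOX1, haem oxygenase, rested on replicates 1 and 3. It measured 8.07, 7.75 and 8.23 in control and 12.05, 7.67 and 12.74 with Nnm at 24 h, and 7.66, 7.75 and 8.28 against 9.05, 7.75 and 9.24 at 48 h. Replicate 2 had effects of -0.09 and 0.00, and the other Nnm samples were above all controls at both times. Its time change was -2.02 ± 1.88 (SD, n = 3), and -3.07 without replicate 2, and the 24 h effect of 2.80 was called only with the replicate block (limma adjusted p = 0.039, against 0.087). ABCC3, an organic anion exporter in the same list, differed in direction, with mean effects of -0.52 and 0.74. At 24 h its replicates gave -1.19, 0.68 and -1.04, so replicate 2 was opposite in sign. Neither effect of ABCC3 was called (4-group limma adjusted p = 0.41 and 0.27, or 0.30 and 0.17 with the block). Its time change was 1.26 ± 1.00 (SD, n = 3), and 1.83 without replicate 2.

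Endoplasmic reticulum, metal and lysosome genes had negative median time changes. The median effect went from 0.00 to -0.22 in the first list, from 0.34 to -0.13 in the second and from 0.53 to 0.19 in the third. Of 17 chaperone and unfolded protein response genes, 8 had a negative and 1 a positive time change in 3 of 3 replicates, with a median of -0.33, or -0.48 without replicate 2, and with medians of -0.52, 0.02 and -0.55 in the replicates. HERPUD1, a factor of protein degradation at that membrane, went from 0.85 to -0.04, and the chaperone DNAJB9 from 1.14 to 0.35, while SEL1L, of the degradation complex, rose by 1.03 at 24 h (4-group limma adjusted p = 0.031) and had an effect of 0.49 at 48 h. Of 9 metallothionein and zinc export genes 6 were negative in 3 of 3 and 0 positive, with a median of -0.46, or -0.66 without replicate 2, led by MT1M at -0.80 ± 0.54 (SD, n = 3). Several of these metallothioneins are close copies, so their probe sets may not be independent. Of 18 lysosome and autophagy genes 9 were negative and 1 positive, with a median of -0.46. TFEB, a regulator of lysosome genes, went from 1.63 to 0.98, the autophagy receptor SQSTM1 from 0.96 to 0.44, and ULK1, a kinase that starts autophagy, from 2.09 to 1.58. With the replicate block and not without it, limma called the 24 h effects of HERPUD1, DNAJB9, TFEB and ULK1 (adjusted p = 0.046, 0.033, 0.042 and 0.018, against 0.077, 0.056, 0.13 and 0.086) and that of ULK1 at 48 h (0.044 against 0.20).

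**Figure D3:**
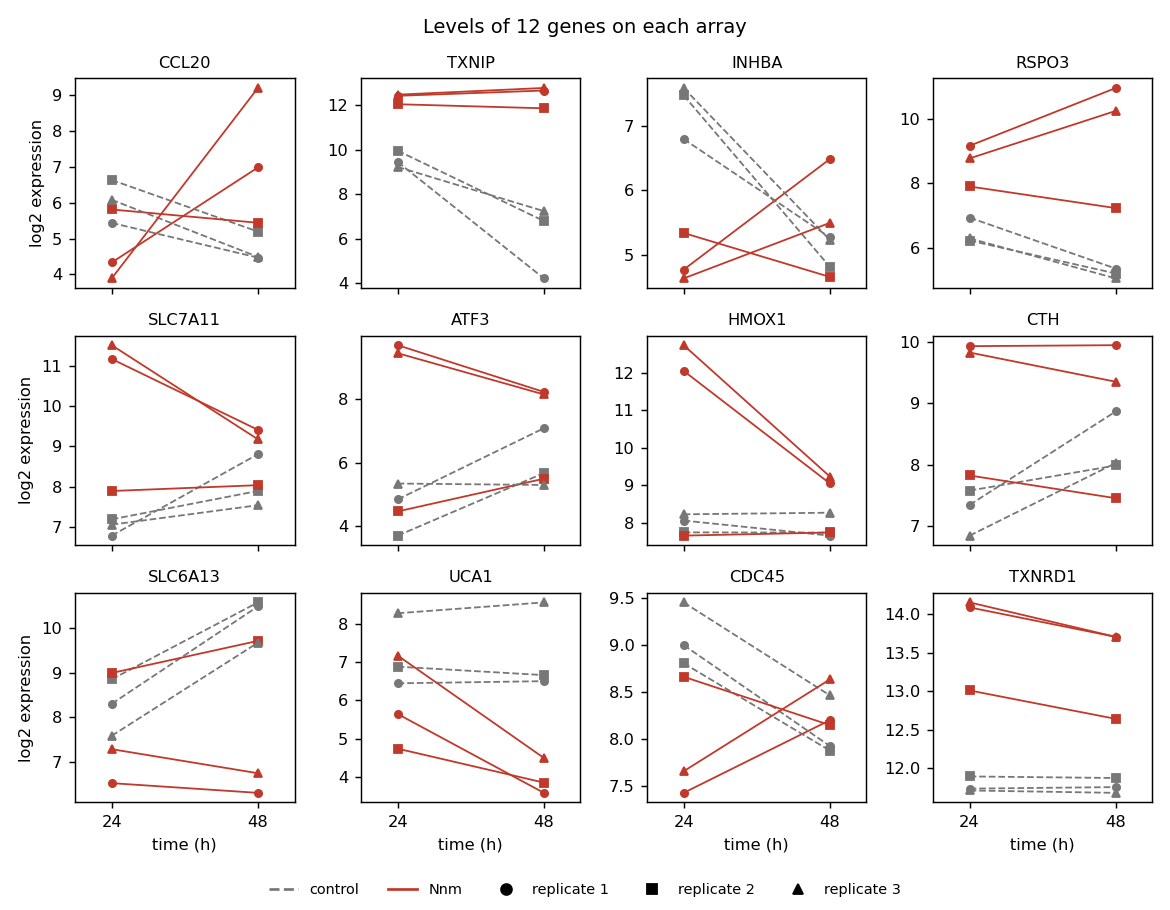
Log2 level on each array at 24 h and 48 h for 12 genes, with control cells as grey dashed lines, Nnm cells as red lines and one symbol per replicate. TXNIP, SLC6A13 and INHBA show control lines that move between the times, and HMOX1 and UCA1 show level control lines with Nnm lines that descend, in HMOX1 in replicates 1 and 3 and in UCA1 in all 3.

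Of the 151 transient lower genes, 2 were in the DNA replication list and 1 in that of ribosome biogenesis. INHBA, the activin A subunit, measured 6.79, 7.47 and 7.58 in control and 4.77, 5.34 and 4.64 with Nnm at 24 h. At 48 h it measured 5.27, 4.81 and 5.23 in control and 6.48, 4.66 and 5.50 with Nnm. Nnm samples lay below all controls at 24 h and overlapped them at 48 h. INHBA fell by 2.37 with Nnm at 24 h (4-group limma, adjusted p = 0.012), and it fell by 2.18 with time in control cells (within-replicate limma, adjusted p = 0.029). The time change was 2.81 ± 0.72 (SD, n = 3), positive in 3 of 3. FOSL1, an AP-1 subunit, had a similar course, with a control change of -1.97 (within-replicate limma adjusted p = 0.027) and a time change of 1.71 ± 0.53, but its Nnm and 48 h control means of 3.63, 3.37 and 3.63 lay under log2 4. EPPK1, a cytolinker of epithelia, went from -1.73 to 0.27 mainly in Nnm cells, whose mean was 1.45 higher at 48 h. Its time change was 1.99, or 2.81 without replicate 2. The 24 h effects of FOSL1 and EPPK1 were called only with the replicate block (limma adjusted p = 0.0099 and 0.031, against 0.12 and 0.067 without).

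Genes of DNA replication had the largest share of positive members (75.9%) among the lists. All 29 tested members had a positive mean time change, from 0.04 to 1.41, and 22 were positive and 0 negative in 3 of 3 replicates. Their median effect was -0.46 at 24 h and 0.24 at 48 h, and the median time change of 0.63 compares with 0.03 over all genes. The replicates gave medians of 1.02, 0.12 and 0.76, and the value without replicate 2 was 0.89. The median change between the times was -0.37 in control cells, where 7 members fell (within-replicate limma), against 5.2% of all genes. In Nnm cells it was 0.24, and the replicates gave 0.44, -0.24 and 0.58.

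CDC45, which activates the replicative helicase, measured 9.00, 8.80 and 9.45 in control and 7.42, 8.66 and 7.65 with Nnm at 24 h. At 48 h it measured 7.92, 7.87 and 8.46 in control and 8.20, 8.15 and 8.63 with Nnm. At 24 h every Nnm sample was below every control, at 48 h each was above the control of its own number, and the ranges overlapped. CDC45 fell by 1.17 at 24 h (4-group limma adjusted p = 0.038) and fell by 1.00 in control cells between the times (within-replicate limma adjusted p = 0.027). Its time change was 1.41 ± 0.86 (SD, n = 3), and 1.91 without replicate 2. The nucleotide enzyme gene RRM2 had a time change of 1.25 ± 0.82, the licensing factor CDC6 of 1.14 ± 0.63 and thymidine kinase TK1 of 1.02 ± 0.64, each positive in 3 of 3. ORC1, of the origin recognition complex, was late and higher, with effects of 0.42 and 1.37, and CDT1 was sustained and higher, with 1.10 and 1.29 (24 h limma adjusted p = 0.051, and 0.023 with the replicate block). UHRF1, which maintains DNA methylation behind the fork, went from -1.33 to 0.24, and the polymerase subunit POLA2 from -1.89 to -0.35.

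Repair genes also leaned to positive time changes. In homologous recombination, Fanconi and checkpoint genes 9 of 13 were positive and 1 negative in 3 of 3, with a median of 0.64 and 0.88 without replicate 2. BLM, a helicase, had effects of -0.29 and 0.95 and a time change of 1.24 ± 0.50 (SD, n = 3), and it fell by 1.18 in control cells (within-replicate limma adjusted p = 0.030). EXO1, a nuclease, went from -0.04 to 1.16, and the kinase ATR from -1.16 to -0.53. Of 19 excision and direct repair genes 10 were positive and 0 negative in 3 of 3, with a median of 0.29. Here the control median was -0.04, and that of the Nnm cells 0.25. The helicase ERCC2 went from -1.62 to -0.66, the scaffold XRCC1 from -0.43 to 0.50 and DNA ligase LIG1 from -1.54 to -0.66.

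The promoters of GINS2, a subunit of the replicative helicase, and LIG1 are shown as the 2 of 9 transient lower genes searched, with an entry, that held an E2F site. This motif was chosen after the expression values were seen. It was searched as TTTCCCGC on both strands, which 1.63% of all promoters of the table held, and a form TTTGGCGC, held by 0.652%, matched none of the 9. GINS2 lies at chr16:85688905-85689204 on the minus strand, with the match on the strand opposite to the gene, and LIG1 at chr19:48170295-48170594 on the minus strand. Capitals mark the match in these RefSeq sequences of GRCh38.p14.
GINS2: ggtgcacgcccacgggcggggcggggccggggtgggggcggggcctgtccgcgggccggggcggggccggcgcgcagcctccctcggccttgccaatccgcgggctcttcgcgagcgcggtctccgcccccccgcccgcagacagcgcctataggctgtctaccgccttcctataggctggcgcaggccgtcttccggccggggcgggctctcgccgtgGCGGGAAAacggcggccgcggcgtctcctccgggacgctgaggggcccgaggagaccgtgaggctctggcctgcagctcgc
LIG1: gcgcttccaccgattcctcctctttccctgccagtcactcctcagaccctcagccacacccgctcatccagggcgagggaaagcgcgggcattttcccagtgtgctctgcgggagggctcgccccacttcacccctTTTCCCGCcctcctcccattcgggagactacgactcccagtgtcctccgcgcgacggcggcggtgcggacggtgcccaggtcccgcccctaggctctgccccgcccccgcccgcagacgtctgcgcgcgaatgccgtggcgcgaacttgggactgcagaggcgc
The CDC45 window held neither form. Of the other motifs searched, the antioxidant response element core matched 1 of the 9, BCL2L1, and the rest matched 0.

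Mitosis genes did not follow replication genes in sign. Of 24, 2 were positive and 0 negative in 3 of 3 replicates, with a median of -0.07. The replicate medians were -0.73, 0.43 and -0.01, so replicates 1 and 2 lay on opposite sides of 0, and the median without replicate 2 was -0.36. In control cells 21 of 24 fell between the times (within-replicate limma), against 5.2% of all genes. The median change was -0.57 in control cells and -0.69 in Nnm cells. AURKB, a kinase of chromosome segregation, had 0.62 ± 0.51 (SD, n = 3) and the checkpoint kinase BUB1B 0.39 ± 0.31. The difference between the 2 lists was not tested.

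**Figure D4:**
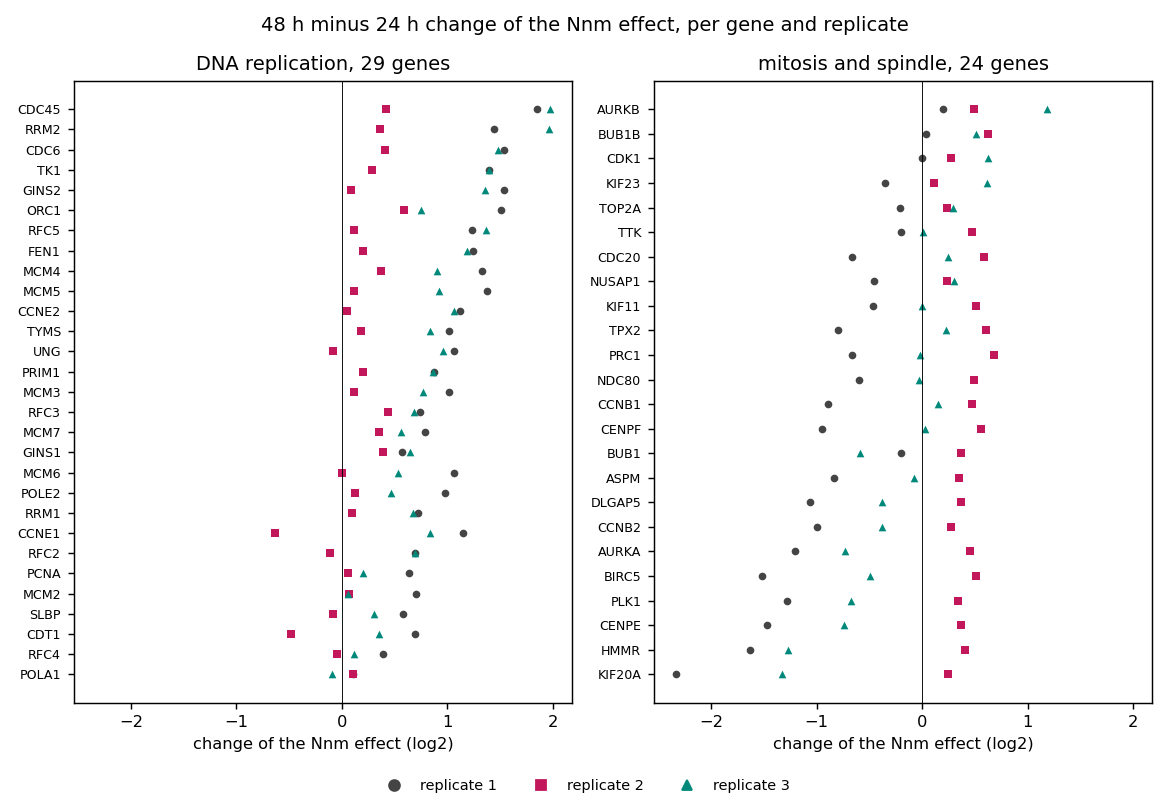
Time change of the Nnm effect (log2, horizontal) per gene and replicate for 29 DNA replication genes (left) and 24 mitosis and spindle genes (right). On the left most points lie right of 0 in every replicate, and on the right replicate 2 (square) lies right of 0 while replicate 1 (circle) lies mostly left of it.

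Clustered histone genes had the lowest list median, -0.74, with 4 of 6 negative and 0 positive in 3 of 3. With members under the filter included the median was -0.06, and a further 11 listed genes were not tested. H2BC12 measured 9.50, 9.39 and 9.50 in control and 9.19, 9.14 and 9.60 with Nnm at 24 h, and 10.41, 10.21 and 9.87 against 9.18, 9.17 and 9.18 at 48 h. The groups overlapped at 24 h and were apart at 48 h, when the controls stood higher. H2BC12 rose by 0.70 in control cells (within-replicate limma adjusted p = 0.048), and its time change was -0.84 ± 0.08 (SD, n = 3). In 3 of the 6 a group mean lay under log2 4.

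Ribosome biogenesis genes had a median effect of -0.66 at 24 h and -0.35 at 48 h, and 9 of 18 had a positive time change in 3 of 3 and 0 a negative one, with a median of 0.33. Its replicate medians of 0.19, 0.27 and 0.58 all lay above 0. RRS1, an assembly factor of the large subunit, measured 9.82, 9.62 and 10.26 in control and 8.53, 8.94 and 8.03 with Nnm at 24 h, and 9.76, 9.46 and 9.45 against 9.73, 9.41 and 9.22 at 48 h. The groups were apart at 24 h and overlapped at 48 h. RRS1 fell by 1.40 at 24 h (4-group limma adjusted p = 0.013), and its time change was 1.30 ± 0.69 (SD, n = 3). BYSL, needed for the small subunit, fell at both times, with effects of -1.49 and -0.88 (4-group limma adjusted p = 0.0099 and 0.036).

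Late higher genes included TXNIP, RSPO3, XKR4 and inflammatory and feedback genes. TXNIP, the thioredoxin-binding arrestin that limits glucose uptake, measured 9.46, 9.96 and 9.23 in control and 12.43, 12.05 and 12.48 with Nnm at 24 h. At 48 h it measured 4.22, 6.80 and 7.24 in control and 12.66, 11.87 and 12.78 with Nnm. The Nnm samples were above all controls at both times and stood at nearly the same level, and the controls were lower on the second day. TXNIP fell by 3.46 in control cells (within-replicate limma adjusted p = 0.047), its mean in Nnm cells differed by 0.12, and the time change was 3.58 ± 1.68 (SD, n = 3), with 3.88 without replicate 2. The effect was called at both times, 2.77 and 6.35 (4-group limma adjusted p = 0.025 and 0.0026). ARRDC4, a related arrestin, had changes between the times of -0.91 in control and -0.92 in Nnm cells and was sustained, with effects of 3.27 and 3.26 from control means under log2 4. Of 8 MondoA and arrestin-domain genes 3 were positive and 2 negative in 3 of 3, with a median of -0.03.

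RSPO3, a secreted enhancer of WNT signalling, measured 6.93, 6.22 and 6.29 in control and 9.17, 7.90 and 8.78 with Nnm at 24 h, and 5.35, 5.20 and 5.04 against 10.97, 7.23 and 10.25 at 48 h. Groups were apart at both times, and the 24 h effect was called only with the replicate block (limma adjusted p = 0.035, against 0.080). Control levels fell by 1.29 (within-replicate limma adjusted p = 0.028), while Nnm replicates 1 and 3 were higher and replicate 2 lower than a day before. The time change was 2.15 ± 1.59 (SD, n = 3) and 3.05 without replicate 2. The other 9 tested WNT modulators had time changes between -0.90 and 0.38, among them DKK3, a secreted Dickkopf-family protein, at -0.85 ± 0.28.

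XKR4, a scramblase family member, was in the late class with mean effects of opposite sign at the times, -0.87 and 1.34. It measured 7.58, 7.67 and 7.82 in control and 6.01, 7.91 and 6.53 with Nnm at 24 h, and 6.70, 6.89 and 6.75 against 7.81, 8.76 and 7.79 at 48 h. Nnm samples 1 and 3 lay below the controls at 24 h, and all 3 lay above them at 48 h. The time change was 2.22 ± 0.54 (SD, n = 3), and the 48 h effect of 1.34 had a 4-group limma adjusted p of 0.065, or 0.025 with the replicate block. ADGRG2, an adhesion receptor, went from 0.21 to 2.28 and REPS2, an endocytosis adaptor, from 0.89 to 3.06, but in replicate 2 their time changes were 0.06 and 0.43, and without it the means were 3.07 and 3.04.

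CCL20, a chemokine that draws CCR6-bearing cells, had the largest positive time change of the genes tested, at 5.25 without replicate 2. It measured 5.43, 6.63 and 6.08 in control and 4.33, 5.81 and 3.89 with Nnm at 24 h, and 4.47, 5.19 and 4.49 against 6.98, 5.44 and 9.19 at 48 h. Within each number Nnm was below control at 24 h and above it at 48 h. The groups overlapped at 24 h and were apart at 48 h, with replicate 2 only just above the controls. Its time change was 3.61, 1.07 and 6.89, a mean of 3.86 ± 2.92 (SD, n = 3), and it fell by 1.33 in control cells (within-replicate limma adjusted p = 0.029). Of 13 chemokine and cytokine genes 4 were positive and 0 negative in 3 of 3, with a median of 0.58, or 0.91 without replicate 2, and replicate medians of 0.79, 0.06 and 0.95. TNFAIP3, an inhibitor of NF-kB, went from 0.21 to 1.10 with a time change of 0.89 ± 0.20, and CXCL2 from -1.31 to -0.09. CCL2 went the other way, from -2.05 to -2.73, with a positive value in replicate 1. Both effects of CCL2 were called only with the replicate block (limma adjusted p = 0.033 and 0.016, against 0.21 and 0.13 without).

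Feedback genes of ERK signalling had 7 of 16 positive and 0 negative in 3 of 3, with a median effect of -0.14 at 24 h and 0.62 at 48 h. DUSP10, a phosphatase of stress kinases, went from 0.69 to 2.06 (48 h limma adjusted p = 0.13, and 0.027 with the replicate block). The mean effect of the EGF-family ligand EREG went from -0.46 to 0.77 and that of the ERK inhibitor SPRY1 from -0.28 to 0.56. EREG had mixed signs at both times, with 0.41, -0.80 and -0.97 at 24 h and 1.11, -0.25 and 1.45 at 48 h. Neither effect of EREG was called (4-group limma adjusted p = 0.64 and 0.44, or 0.45 and 0.23 with the block). SPRY1 rose by 1.41 in control cells (within-replicate limma adjusted p = 0.040) and was 2.25 higher in Nnm cells. All groups were cultured with EGF. YAP-TEAD targets had 5 of 14 positive and 0 negative, with a median of 0.34, and the matrix protein gene THBS1 fell at both times, with effects of -1.70 and -0.98 (4-group limma adjusted p = 0.010 and 0.040). Among 16 immediate early genes 5 were positive and 2 negative, with IER3 at 0.90 ± 0.48 (SD, n = 3) and KLF4 at 0.62 ± 0.50, and the replicate medians were -0.22, 0.18 and 0.48.

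Interferon response genes had a median of 0.36, with 3 of 15 positive and 2 negative in 3 of 3, and replicate 2 gave -0.02. At 24 h 5 members rose and 1 fell, and at 48 h 4 rose and 0 fell (4-group limma). Of all genes 8.31% rose and 8.21% fell at 24 h, and 6.55% rose and 4.27% fell at 48 h. OAS3, a sensor enzyme of double-stranded RNA, measured 7.52, 7.63 and 7.87 in control and 6.71, 7.19 and 7.07 with Nnm at 24 h, and 6.95, 6.92 and 7.22 against 7.26, 7.15 and 7.31 at 48 h. The groups were apart at 24 h, with Nnm lower, and overlapped at 48 h. OAS3 fell by 0.68 at 24 h (4-group limma adjusted p = 0.025) and fell by 0.64 in control cells (within-replicate limma adjusted p = 0.030), and the time change was 0.89 ± 0.22 (SD, n = 3). IFIT1 was late, from 0.51 to 1.28, while OAS1 rose at both times, by 1.62 and 2.01 (4-group limma adjusted p = 0.011 and 0.0054). IFIH1, an RNA sensor, went from 1.31 to 0.76.

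Late lower genes included transporters, adhesion genes and mitochondrial enzymes. SLC6A13, a GABA and taurine transporter of the proximal tubule, measured 8.30, 8.85 and 7.58 in control and 6.52, 8.99 and 7.28 with Nnm at 24 h, and 10.49, 10.58 and 9.67 against 6.30, 9.71 and 6.74 at 48 h. The groups overlapped at both times, narrowly at 48 h and through replicate 2. SLC6A13 rose by 2.00 in control cells (within-replicate limma adjusted p = 0.027), its Nnm mean differed by -0.01, and the time change was -2.01 ± 0.88 (SD, n = 3). Its 48 h effect was called only with the replicate block (limma adjusted p = 0.017, against 0.072 without). The cadherin FAT4, the GTPase RAB17 and the axon guidance receptor ROBO2 rose in control cells too, by 1.39, 1.88 and 1.75 (within-replicate limma adjusted p = 0.027, 0.027 and 0.028). Their 48 h effects were called only with the replicate block (limma adjusted p = 0.011, 0.019 and 0.037, against 0.064, 0.059 and 0.15).

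UCA1, a long noncoding RNA, differed in its arms. It measured 6.45, 6.88 and 8.27 in control and 5.65, 4.74 and 7.17 with Nnm at 24 h, and 6.50, 6.66 and 8.56 against 3.59, 3.86 and 4.50 at 48 h. Groups overlapped at 24 h and were apart at 48 h. Control means differed by 0.04 and Nnm means by -1.87, giving a time change of -1.91 ± 1.16 (SD, n = 3). UCA1 fell by 3.26 at 48 h (4-group limma adjusted p = 0.023), and its 24 h effect of -1.35 was called only with the replicate block (adjusted p = 0.021, against 0.20 without). OVGP1, an oviductal glycoprotein gene, had effects of 0.23 and -1.57 and a time change of -1.80 ± 0.21, with -1.74, -1.63 and -2.04 in the replicates. OVGP1 fell at 48 h (4-group limma adjusted p = 0.015).

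Oxidative phosphorylation genes had negative medians at both times, and 7 of 19 fell at 24 h and 10 of 19 at 48 h (4-group limma). Of all genes 8.21% fell at 24 h and 4.27% at 48 h. The time change of 12 was negative and of 0 positive in 3 of 3, with a median of -0.14, and the median effect went from -0.45 to -0.57. ATP5F1B, a subunit of ATP synthase, was late, from -0.49 to -1.01 (24 h limma adjusted p = 0.051, and 0.032 with the replicate block), and SDHA, of complex II, was sustained, at -1.16 and -1.17. Of 16 fatty acid oxidation genes 8 were negative and 1 positive, with a median of -0.12. ETFDH, which passes electrons from fatty acid dehydrogenases to ubiquinone, measured 6.48, 6.68 and 6.72 in control and 7.94, 6.34 and 7.91 with Nnm at 24 h, and 6.51, 6.82 and 6.68 against 6.22, 5.86 and 6.36 at 48 h. Nnm samples 1 and 3 were above the controls at 24 h, and all 3 were below them at 48 h, with a time change of -1.29 ± 0.59 (SD, n = 3). ACADS, a short-chain dehydrogenase, went from -0.27 to -1.37.

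Sustained higher genes included some whose control means lay under the filter level of log2 4. The sizes of such effects rest on control values near background and are not ranked here. SLC16A14, an orphan monocarboxylate transporter, measured 3.13, 2.43 and 2.45 in control and 10.62, 7.53 and 10.75 with Nnm at 24 h, and 2.39, 2.40 and 2.52 against 9.84, 8.05 and 9.48 at 48 h. The groups were far apart at both times, with replicate 2 lowest among the Nnm samples. Its time change was -0.27 ± 0.96 (SD, n = 3) with a 95% interval of that mean plus or minus 0.98. SLC16A9, a carnitine and creatine exporter, had effects of 4.95 and 5.46 and DHRS2, a carbonyl reductase, of 5.34 and 5.43. Their time changes were 0.50 ± 0.38 and 0.09 ± 0.97, and both rose at both times (4-group limma adjusted p = 0.016 and 0.013 for SLC16A9, 0.024 and 0.025 for DHRS2). TPPP, a tubulin-binding protein, and the ubiquitin ligase RNF150 had mean effects above 4 at both times. Those of TPPP were called only with the replicate block (limma adjusted p = 0.037 at both, against 0.090 and 0.093), as was that of RNF150 at 24 h (0.042 against 0.097). In replicate 2 RNF150 was at 2.60 against a control of 2.59 at 24 h. PCLO, a synaptic scaffold gene, rose at both times by 4.22 and 3.70 (4-group limma adjusted p = 0.012 and 0.017). Of 12 tested members of the SLC16 and DHRS families 3 were positive and 1 negative in 3 of 3, with a median of 0.15.

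Sustained lower genes included the growth factor NRG1, the tight junction channel CLDN2 and the keratin KRT20. NRG1 measured 8.91, 9.04 and 9.68 in control and 4.21, 7.62 and 5.19 with Nnm at 24 h, and 7.90, 8.52 and 8.53 against 2.94, 7.21 and 3.58 at 48 h. All Nnm samples lay below all controls at both times, replicate 2 least so. Its time change was -0.20 ± 0.29 (SD, n = 3), but it turned to 0.29 with values under log2 4 set to 4 and to 0.22 with the mean over its probe sets. NRG1 fell by 0.89 in control cells (within-replicate limma adjusted p = 0.040). CLDN2 had effects of -3.51 and -3.96, with a 24 h adjusted p of 0.088 in the 4-group limma fit and 0.039 with the replicate block, and 48 h values of 0.077 and 0.032. Its replicates gave -5.24, -0.85 and -4.45 at 24 h and -5.75, -0.63 and -5.51 at 48 h. Without replicate 2 its mean effects were -4.84 and -5.63. KRT20 had effects of -2.73 and -3.24 and rose by 1.68 in control cells (within-replicate limma adjusted p = 0.038). The noncoding ZFHX4-AS1, the pseudogene ZBED10P and the synaptic organizer CBLN2 had time changes of -0.13, 0.10 and -0.31.

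Of the lipid synthesis lists, 3 of 17 cholesterol genes and 2 of 8 fatty acid synthesis genes were sustained and lower. At each time 4 of the 17 and 3 of the 8 fell (4-group limma), against 8.21% of all genes at 24 h and 4.27% at 48 h. Cholesterol synthesis and uptake genes had a median effect of -0.63 and -0.74 and a median time change of -0.02, with 7 of 17 negative and 1 positive in 3 of 3. LSS, which forms lanosterol, fell at both times, with effects of -0.71 and -1.03 (4-group limma adjusted p = 0.026 and 0.011), and MVK, mevalonate kinase, went from -0.17 to -0.74 (48 h limma adjusted p = 0.10, and 0.013 with the replicate block). Fatty acid synthesis genes had 1 of 8 positive and 1 negative and a median of 0.03, and FASN, fatty acid synthase, fell with effects of -1.31 and -1.28 (4-group limma adjusted p = 0.013 at both). Among 12 lipid droplet genes, with a median of -0.02, 2 were positive and 3 negative. G0S2, an inhibitor of triglyceride lipase, went from 2.23 to 3.90, with a time change in replicate 2 of 0.16 against 2.09 and 2.75. Its 24 h effect was called only with the replicate block (limma adjusted p = 0.035, against 0.092 without).

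Several lists had medians near 0 or mixed signs. Glycolysis and HIF targets had 1 of 20 positive and 5 negative with a median of -0.07, and PDK1, which restrains pyruvate oxidation, fell at both times, with effects of -0.92 and -1.64 (4-group limma adjusted p = 0.032 and 0.0071). Heat shock genes had 5 of 14 positive and 1 negative, a median of 0.07 and members between -0.37 and 0.33. p53 targets had 5 of 22 positive and 4 negative with a median of -0.03. CDKN1A, the p53-induced cell cycle inhibitor, had effects of 0.61 and 0.47 in replicates 1 and 3 at 24 h and of 0.48 and 0.55 at 48 h. Replicate 2 was opposite in sign at both times, with -0.71 at 48 h, and the means were 0.54 and 0.51 without it against 0.03 and 0.11 with it. PLK3, a Polo-like kinase, had a time change of 0.55 ± 0.09 (SD, n = 3). Glucocorticoid targets had 1 of 9 positive and 2 negative with a median of 0.12, and TSC22D3, also called GILZ, had a time change of -0.47 ± 0.05 and rose by 1.02 in control cells (within-replicate limma adjusted p = 0.036). Hydrocortisone was in the medium of all groups.

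Apoptosis genes had 6 of 14 positive and 1 negative in 3 of 3 with a median of 0.33, and BCL2L1, an inhibitor of apoptosis, went from -1.15 to -0.29 (24 h limma adjusted p = 0.086, and 0.0092 with the replicate block). Tubular injury markers had 6 of 18 positive and 3 negative with a median of 0.21. SOX9, a factor of tubule repair, went from -1.41 to 0.10 and fell by 1.29 in control cells (within-replicate limma adjusted p = 0.037), and HAVCR1, the injury marker KIM-1, went from -0.65 to -0.89. The cell surface receptor CD44 went from 0.47 to 1.23, with -0.33 and -0.21 in replicate 2 and means of 0.87 and 1.94 without it. Collagen, laminin and integrin genes had 5 of 19 positive and 4 negative with a median of -0.01. LAMB3, a laminin chain, went from 1.68 to 2.69 with a negative time change in replicate 2, 1.73 without it, and a 24 h effect called only with the replicate block (limma adjusted p = 0.047, against 0.093).

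**Figure D5:**
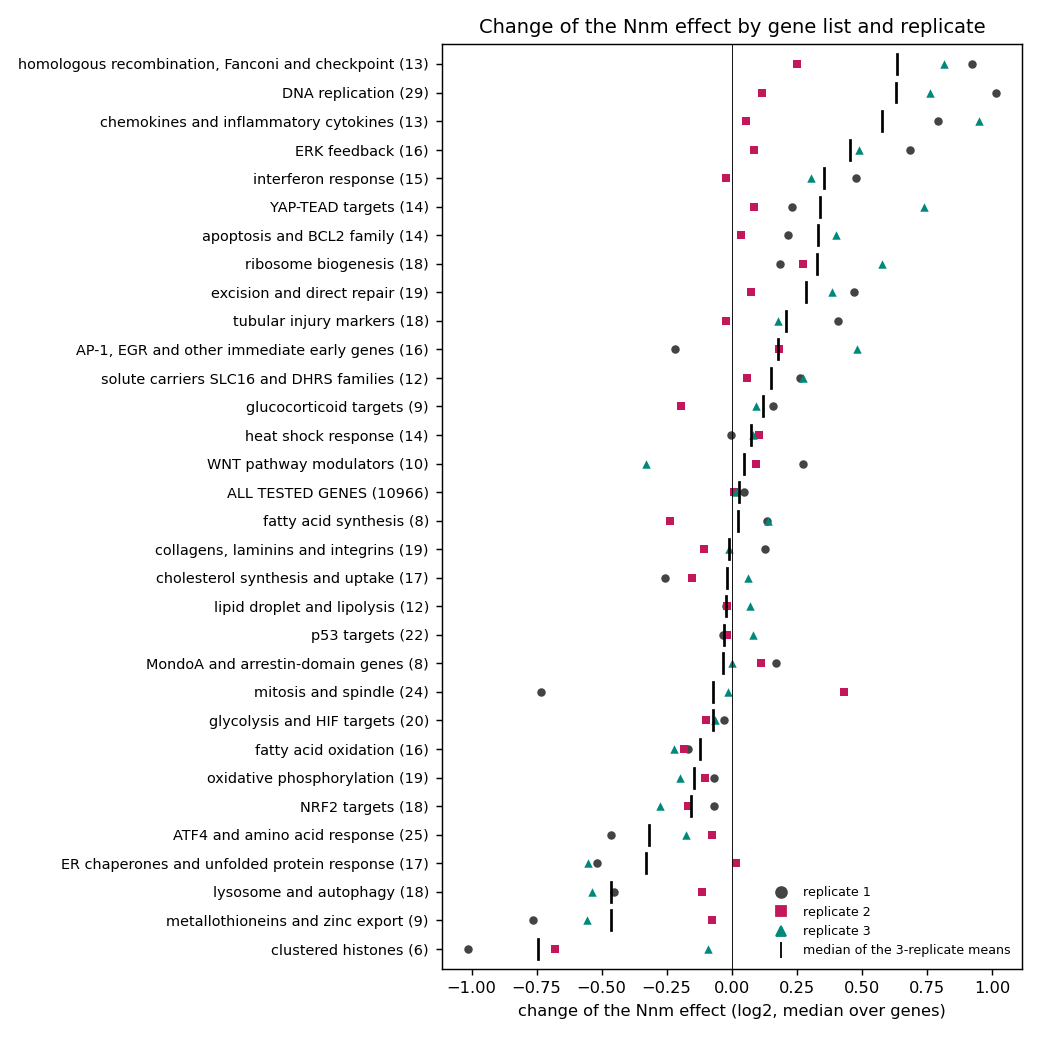
Median time change of the Nnm effect (log2) over the tested genes of each list, with one symbol per replicate and a bar for the median of the 3-replicate means; numbers in parentheses are tested genes. Replication and recombination lists lie highest and clustered histones lowest, and replicate 2 (square) is nearer to 0 than replicates 1 and 3 for most of the outer lists.

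Across the 12 arrays, the genes with levels most like SLC7A11 by Pearson's r were KDM3A (0.98), SIRT1 (0.98) and LRRC37B (0.98). Those most like INHBA were UQCC5 (0.92), LOC105377276 (0.89) and SLC26A2 (0.88). Those most like TXNIP were B3GNT5 (0.97), XRCC4 (0.96) and GALNT13 (0.96), and those most like SLC6A13 were SLC4A4 (0.98), ROBO2 (0.98) and RPL3 (0.97). These correlations describe arrays of 4 groups that share replicate numbers. SLC4A4 and ROBO2 were themselves late and lower, and KDM3A was transient and higher, while the other 9 met no class definition.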

How the data were processed

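Per the labels, HK-2 total RNA was labelled as biotinylated cRNA and hybridized to Affymetrix arrays, 1 sample each. The authors deposited log2 expression values per probe set, and the submitters' processing notes name GCRMA without a version, so background correction, normalization and summarization were theirs. Such values do not show a change shared by most genes. No scanner files were used here.

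Of 54675 probe sets, 62 controls were left out. Each gene took the probe set with the highest mean among those naming it alone (41091 named 1 gene, 1801 several, 11721 none). Within-replicate differences were fitted with limma 3.58.1 (R 4.3.3) as an intercept with eBayes and 2 residual degrees of freedom, with Benjamini-Hochberg adjustment over 22829 probe sets and a threshold of 0.05. Effects at each time came from a 4-group limma fit, with the replicate block beside most described effects whose call changed. Same-numbered arrays deviated together from their group means: 18 of 18 correlations were above 0.1 (0.16 to 0.67). The median over 36 other pairs was -0.21. Deviations sum to 0 within a group, so positive same-number values push the other pairs below 0, and the -0.21 is not separate evidence. The pairing of same-numbered arrays comes from the data, not the labels. Scripts were tested on simulated data with noise scaled down from the real within-group spread and with no outlying replicate. That test checks the scripts and does not measure how many real changes they would find.

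The named genes were the 10 largest time changes in each direction and the 6 largest sustained in each direction. From each list came up to 4 members with the same sign in 3 of 3 replicates, and any member in a class. A fixed set was named wherever tested: HMOX1, GDF15, CDKN1A, HAVCR1, TXNIP, DDIT3, ATF3, HSPA1A, DNAJB1 and SQSTM1. The 3 genes with levels most like the first gene of each transient and late class were named too. The 8 largest of each transient and late class were added after values were seen. Members, lists (37, with 656 entries, 502 tested) and classes were chosen with earlier results of these data known. Alternatives covered the model, filter, scaling, floor, probe set rule, class thresholds and each replicate left out. The number of arrays limits the precision.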

Additional observations from a re-analysis of the deposited data

Results flagged for a closer look

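In 15 of the named genes the Nnm effect had one sign in 3 of 3 replicates at 24 h and the opposite sign in 3 of 3 at 48 h. None of these time changes passed limma after adjustment (smallest adjusted p 0.282). Over all 10966 genes, 96 (0.875%) went from higher to lower and 159 (1.45%) from lower to higher. Many of the named genes were picked for a time change of one sign in 3 of 3 replicates. That choice favours such reversals, so the 15 do not measure how common they are. From lower to higher with Nnm went the chemokine CCL20 (time change 3.86), the receptor ROR1 (2.07), EPPK1 (1.99), the potassium channel KCNN4 (1.87), UHRF1 (1.57), CDC45 (1.41), BLM (1.24), CDC6 (1.14), OAS3 (0.89), AURKB (0.62) and the small heat shock protein HSPB1 (0.28). From higher to lower went the chloride exchanger CLCN4 (-1.74), RAB17 (-1.70), the thiamine transporter SLC19A2 (-1.52) and the mitophagy receptor BNIP3 (-0.50).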

How the results depend on the processing

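The time change of the Nnm effect was called for 0 probe sets under each of the 11 alternatives, and the most at an unadjusted p under 0.05 came without replicate 2, with 7390 and a smallest adjusted p of 0.0527. With no replicate block these values were 1418 and 0.312, and with the additive replicate block 2321 and 0.337. For the effect at each time, the block added calls for 49 named genes at 24 h and 34 at 48 h, and 0 named genes lost theirs. Scaling moved the median time change of all genes from 0.028 to -0.0053 with quantile normalization and -0.015 with centring. Limits are the 3 replicates, the departure of replicate 2 and levels near background.

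At 1.5-fold there were 315 transient up, 394 transient down, 353 late up, 149 late down, 853 sustained up and 699 sustained down genes, and at 2 on the log2 scale 9 transient up, 7 transient down, 15 late up, 5 late down, 51 sustained up and 20 sustained down. Without the sign rule there were 242 transient down and 220 late up, and with arrays centred 78 late down. Leaving out each replicate number gave 71 to 343 transient up, 105 to 523 transient down, 97 to 389 late up, 46 to 146 late down, 249 to 569 sustained up and 158 to 494 sustained down, each range from the lowest to the highest.

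With arrays centred, the median was -0.17 for fatty acid oxidation and -0.12 for glycolysis and HIF targets. With the mean over a gene's probe sets, the median was 0.17 for MondoA and arrestin-domain genes, 0.16 for collagens, laminins and integrins, 0.13 for heat shock response and 0.050 for p53 targets. With the filter at log2 6, the median was 0.11 for lipid droplet and lipolysis. Without the filter, the median was -0.057 for clustered histones, 0.12 for markers, fibroblast and -0.016 for markers, proximal tubule. With values under log2 4 set to 4, the median was -0.13 for MondoA and arrestin-domain genes. Leaving out each replicate number gave ranges of -0.14 to 0.11 for MondoA and arrestin-domain genes, -0.32 to -0.15 for NRF2 targets, -0.16 to -0.14 for fatty acid oxidation, -0.12 to -0.051 for glycolysis and HIF targets, -0.024 to 0.093 for lipid droplet and lipolysis, 0.21 to 0.40 for markers, fibroblast, -0.074 to 0.072 for p53 targets and 0.10 to 0.30 for solute carriers SLC16 and DHRS families.

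Some named genes changed sign, and none had a called time change in the reported values. With arrays centred, the value was -0.0014 for CEBPG, -0.014 for FASN and -0.0060 for NSDHL. With the mean over a gene's probe sets, the value was -0.19 for CEBPG, -0.0061 for GALNT13, -0.17 for ITGA2 and 0.22 for NRG1. With values under log2 4 set to 4, the value was 0.0031 for CBLN2, -0.022 for DHRS2, 0.15 for H3C2 and 0.29 for NRG1. With quantile normalization, the value was -0.0023 for NSDHL. Leaving out each replicate number gave ranges of -0.086 to 0.15 for ARRDC4, -0.022 to 0.19 for CDKN1A, -0.068 to 0.52 for CDT1, -0.25 to 0.25 for CEBPG, -0.36 to 0.60 for DHRS2, -0.037 to 0.21 for DNAJB1, -0.0012 to 0.086 for FASN, -0.74 to 0.41 for FOS, -0.47 to 0.36 for FZD7, -0.67 to 0.30 for H3C2, -0.025 to 0.80 for IFIT2, -0.22 to 0.26 for ITGA2, -1.01 to 0.089 for KRT20, -0.062 to 0.45 for NQO1, -0.10 to 0.23 for NSDHL, -0.056 to 0.027 for SDHA, -0.68 to 0.26 for SLC16A14, -0.027 to 0.33 for SLC16A5, -0.27 to 0.047 for SREBF1, -0.35 to 0.20 for VEGFA, -0.22 to 0.61 for ZBED10P and -0.46 to 0.085 for ZFHX4-AS1. The causes were not tested.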
